A study of Xenopus laevis with 35 samples.

Results

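The subject here is the course over time of brain gene expression in Xenopus laevis tadpoles that were all exposed to MMI. The members are the 9 arrays labelled MMI, of 35 in the series, with 3 arrays at 24 h, 3 at 48 h and 3 at 96 h, and the 48 h and 96 h arrays were compared with the 24 h arrays. Every animal was at NF stage 54 when exposure began, NF being the Nieuwkoop and Faber stages of Xenopus development, and every group carried the same concentration of MMI, 100 mg/L, without a break. At each time 5 tadpoles were taken from each of 2 of the 6 MMI tanks, which makes 10 animals, and RNA of their brains was hybridised as 3 separate pools. The labels give no strain, sex or genotype, and do not say whether the same tanks were sampled at several times. Because no unexposed animal enters the comparison, hours of exposure, age and tank cannot be told apart in it, and p-values measure the spread between pools of 1 time point. The control and PTU arrays (9 each, the latter at 20 mg/L, both at the same 3 times) were used where a difference in time course was tested. Otherwise they entered only alternative settings, to choose the scaling probes or in a larger fit. The remaining arrays of the series, of another treatment labelled PER, entered only the alternative settings that used all 35 arrays.

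As background, MMI stands for methimazole, which blocks the thyroid peroxidase that puts iodine on thyroglobulin, so that less thyroid hormone is made while stored hormone is used up. In a tadpole thyroid hormone starts and paces metamorphosis, and in the brain it acts through nuclear receptors on genes of cell division, neuronal differentiation and myelin. PTU is propylthiouracil, a thioamide drug with the same target. The labels report from earlier work that such concentrations enlarged the thyroid within days and slowed metamorphosis later on. The time course asks which brain transcripts move during the first days of that exposure.

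Each array held 449 probes, each spotted 2 times side by side, and the mean of both spots was used. A gene name was available for 250 probes, and the other 199 are called by their number. Above background means a value over 2 background SDs of the array, with the SD estimated from its values below 0. Values are scaled intensities, that is, the deposited intensity multiplied by 1 factor per array so that the 51 probes above background on all 9 arrays have the same median. They have no unit, and levels of different probes are not compared. Between 86 and 241 probes per array were above background. The array of 96 h replicate 2 had the 241, and its lower quartile of deposited intensity was 206, against -371 to -39.6 on the other 8 arrays. The array of 48 h replicate 3 was the brightest, with a median of 21348 over the 51 probes against 4411 to 9462 on the others, and its factor was 0.366. The mean number above background was 112 ± 22.9 at 24 h, 121 ± 4.62 at 48 h and 148 ± 81.8 at 96 h (SD, n = 3 each). The difference between 96 h and 24 h was 36.7 probes (exact permutation test, two-sided p = 0.7, where 0.1 is the smallest possible) and turned to -9.67 without 96 h replicate 2. Some genes of neurons and glia were measured throughout and most were dim. Gap43.S, a growth cone protein of neurons, and npy.S, a neuropeptide, were above background on all 9 arrays, and mbp.S, myelin basic protein, on 8 of 9, while dcc.L, fmr1.L, epha4.L, glul.L and nkx2-2.S were above background on 0 to 2 arrays each.

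**Figure D1:**
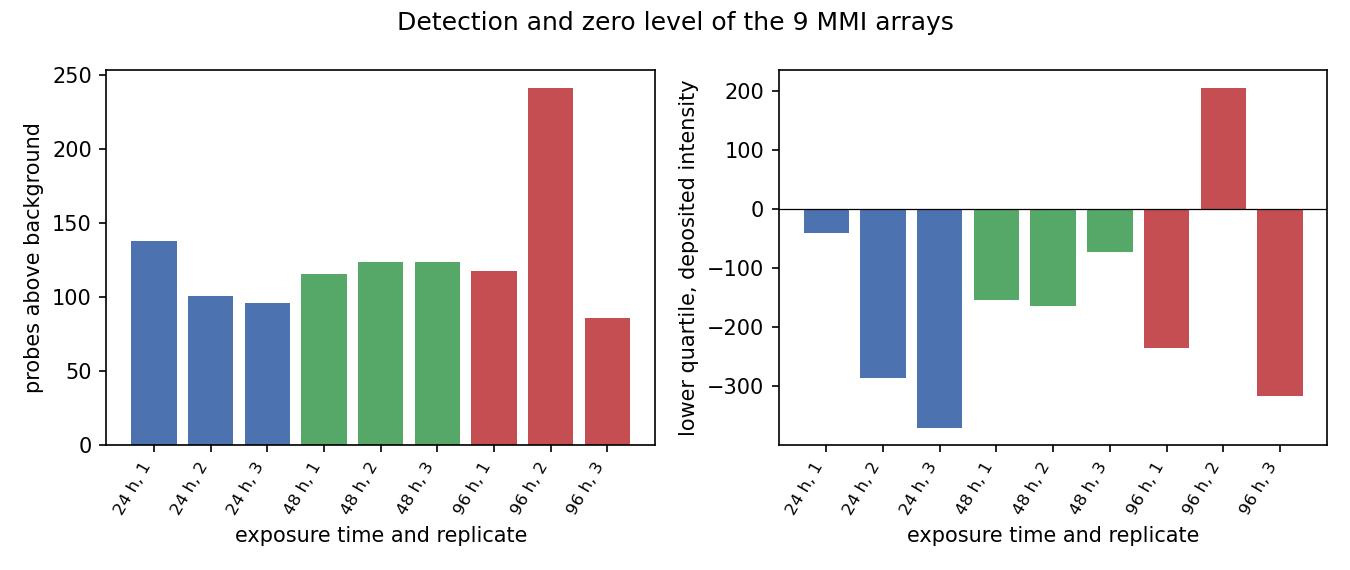
Number of probes above background (left) and lower quartile of the deposited intensity (right, no unit) on each of the 9 MMI arrays, coloured by exposure time. The array of 96 h replicate 2 stands apart in both, with 241 probes and a lower quartile of 206, while the other arrays have 86 to 138 probes and lower quartiles of -371 to -39.6.

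Over the 51 steadily detected probes the arrays of 1 time were on average somewhat more alike than arrays of different times, and 96 h lay on average farther from 24 h than 48 h did. The correlation of log2 intensities over these probes averaged 0.906 between 24 h arrays, 0.913 between 48 h arrays and 0.893 between 96 h arrays. It averaged 0.886 between 24 h and 48 h, 0.858 between 48 h and 96 h and 0.827 between 24 h and 96 h. The ranges overlapped, with 0.869 to 0.934 within 24 h and 0.855 to 0.924 between 24 h and 48 h. Single pairs of 48 h and 96 h reached 0.932, above the highest pair within 96 h (0.910). These are correlations across probes, which are not independent replicates, and are given as a description. Of the 51 probes, 30 have a gene name. Counted by direction at 96 h against 24 h under this scaling, with no test, 7 named probes were higher and 23 lower, while 14 unnamed probes were higher and 7 lower. Of the 23, 4 are probes of rpl8.S. With arrays scaled on the probes above background on all 35 arrays, 22 named probes were higher and 8 lower, and all 21 unnamed probes were higher.

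**Figure D2:**
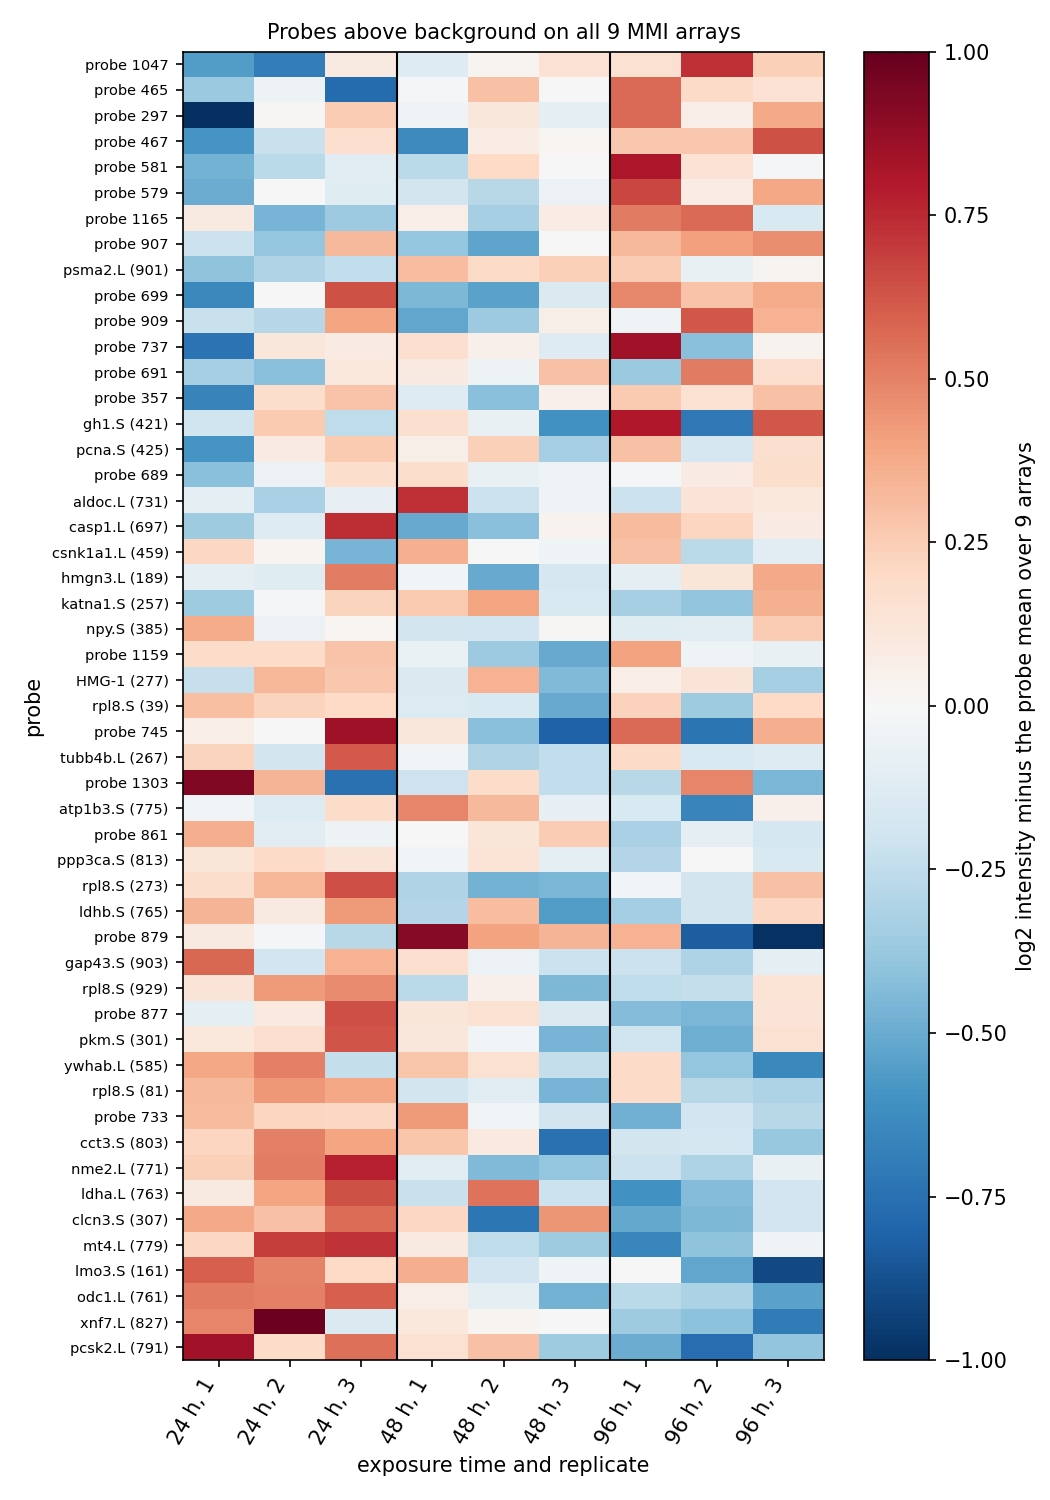
Log2 scaled intensity of the 51 probes above background on all 9 MMI arrays, each minus its mean over the arrays (colour), with arrays in columns by time and replicate and probes in rows by their 96 h minus 24 h difference. Under this scaling 14 unnamed probes are higher at 96 h and lie in the upper rows, and pcsk2.L, xnf7.L, odc1.L, lmo3.S and mt4.L form the lower end of the plot, with their lowest values in the 96 h columns.

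From 24 h to 48 h no probe passed the test. Limma's moderated test called 0 of 444 probes at an adjusted p under 0.05, a background of 0% called, with a smallest adjusted p of 0.218. At an unadjusted p under 0.05 there were 32 probes, 9 higher and 23 lower at 48 h, where 22.2 would come from chance alone. Of the 51 steadily detected probes, 18 were higher and 33 lower at 48 h, with a median difference of -0.21 (log2, offset 595 added to each scaled value) against -0.07 over all 444. That split belongs to the scaling: with the deposited values unscaled all 51 were higher at 48 h, and with arrays scaled on the probes above background on all 35 arrays 44 were.

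The named probes with the smallest p on the higher side at 48 h were id2.L, psma2.L, npr3.L, mbp.S and rpl35a.S, with the unnamed probe 261 (1.42, limma adjusted p = 0.59) among them. For id2.L (probe 99), which encodes a protein that binds and blocks proneural helix-loop-helix factors, the scaled intensities were 1906, 573 and 1544 at 24 h, 4626, 2562 and 3785 at 48 h, and 2679, 1780 and 1371 at 96 h. All 3 arrays at 48 h lay above all 3 at 24 h, and the 96 h arrays overlapped with both. The difference of id2.L at 48 h was 1.18 (log2, SE 0.36, limma adjusted p = 0.49), and between 0.88 and 1.95 in the 25 alternative settings, none of which called it. For mbp.S (probe 263), myelin basic protein of oligodendrocytes and a gene with thyroid hormone response in the mammalian brain, the values were 5101, 5250 and 1603 at 24 h, 12207, 8519 and 4701 at 48 h, and 3720, 4065 and 3352 at 96 h. The 24 h and 48 h arrays of mbp.S overlapped, since 48 h replicate 3 lay below 24 h replicates 1 and 2, while every 96 h array lay below every 48 h array. The difference of mbp.S was 1.03 (SE 0.45, limma adjusted p = 0.648) at 48 h and 0.04 at 96 h, both against 24 h. Npr3.L (probe 695), the clearance receptor of natriuretic peptides, was higher at each later time without overlap, with 2605, 3822 and 2351, then 4494, 4578 and 4659, then 6383, 4907 and 6108. Against 24 h it stood 0.58 higher at 48 h (adjusted p = 0.59) and 0.88 at 96 h (limma, SE 0.22, adjusted p = 0.172). Psma2.L (probe 901), a subunit of the proteasome core, was at 4300 ± 262 at 24 h, 6629 ± 282 at 48 h and 5828 ± 765 at 96 h (SD, n = 3 each), and its difference at 48 h was 0.56 (limma adjusted p = 0.557). For rpl35a.S (probe 295), a protein of the large ribosomal subunit, 1 of 3 arrays at 24 h was above background and all 3 were at 48 h and at 96 h. Its difference was 1.41 at 48 h (limma adjusted p = 0.648) and 1.69 at 96 h (adjusted p = 0.367), with overlapping arrays in both.

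On the lower side at 48 h stood rpl8.S, nme2.L, odc1.L and the unnamed probes 601 and 809. Rpl8.S, another protein of the large ribosomal subunit, is measured by 5 probes, and on each of the 5 all 48 h arrays lay below all 24 h arrays. On probe 493 the values were 49700 and 47289 at 24 h (replicate 1 has an empty cell), 26087, 25906 and 25476 at 48 h, and 31199, 27000 and 32622 at 96 h. On probe 81 they were 49843, 53864 and 52101, then 34871, 36914 and 28608, then 45401, 32727 and 31864. The differences of the 5 probes at 48 h ran from -0.89 to -0.51 and none was called (limma adjusted p = 0.402 for probe 493, 0.417 for probe 273). They depend on the scaling, since with unscaled values all 5 were higher at 48 h, by 0.20 to 0.49, and after quantile normalization 3 were lower and 2 higher. The 5 probes share a gene and are not separate evidence. Nme2.L (probe 771), a nucleoside diphosphate kinase, was at 44329 ± 8258 at 24 h and 24680 ± 3242 at 48 h, a difference of -0.82 (limma adjusted p = 0.402) with no overlap, but 0.18 with unscaled values. Across all 444 probes, 22 had every 48 h array above and 33 every 48 h array below the 24 h arrays, beside the 0% called. With so few arrays at each time, a lack of overlap also arises by chance and is given as a description.

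From 24 h to 96 h, limma called 5 of 442 probes at an adjusted p under 0.05, a background of 1.13%, with 3 higher (0.679%) and 2 lower (0.452%). Of these, 3 have a name in the files: map2k3 and LOC397846 rose and dusp1.L fell. Probe 375 rose and probe 601 fell, and neither has a gene name. All 5 had an adjusted p of 0.0357, and on all 5 the 96 h and 24 h arrays did not overlap. In all 31 probes had every 96 h array above and 33 every 96 h array below the 24 h arrays. At an unadjusted p under 0.05 there were 48 probes, 19 higher and 29 lower, where 22.1 would come from chance alone.

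Map2k3 (probe 449) encodes a kinase that activates the p38 MAP kinases in stress and cytokine signalling. Its scaled intensities were -869.5, -103.8 and -1481 at 24 h, -22.2, 32.6 and 9.7 at 48 h, and 6748, 1514 and 2126 at 96 h. It was above background on none of the 6 earlier arrays and on all 3 at 96 h. Both spots of the probe were positive on each 96 h array, but they differed, with 2127 and 11369 on replicate 1, 1048 and 1980 on replicate 2, and 605 and 3648 on replicate 3. For a gene above background on no array of the dimmer group only a bound is given, the brighter mean over the dim group's detection level, both as means of log2 values. Map2k3 was at least 1.57-fold higher at 96 h than at 24 h, with a fitted difference of 2.55 (log2, SE 0.42, limma). Against 48 h it was at least 2.12-fold higher (fitted difference 2.52, adjusted p = 0.0531). Mapk14.S, the p38 kinase that map2k3 acts on and named here after its values were seen, was above background on 1 of 9 arrays and not called.

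Dusp1.L (probe 451) encodes a phosphatase that switches off MAP kinases, p38 among them, and is an early response gene to stress and glucocorticoid in mammals. It read 6243 and 3073 at 24 h (replicate 1 has an empty cell), 1051, 895.5 and 1305 at 48 h, and -220.4, 641.7 and 322.2 at 96 h. The arrays of the 3 times did not overlap. It was above background on both 24 h arrays with a value, on 1 of 3 at 48 h and on 1 of 3 at 96 h. The fitted difference from 24 h was -1.58 at 48 h (adjusted p = 0.402) and -2.51 at 96 h (SE 0.40, limma adjusted p = 0.0357).

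LOC397846 (probe 869) has a locus name only, and no role is given for it here. Its values were all below 0 at 24 h and 48 h and were 719.9, 1622 and 778.4 at 96 h, of which 1 was above background, so no fold can be given (fitted difference 1.42, SE 0.24). Probe 375 read 349.2, 383.7 and -940.5 at 24 h, 1130, 1200 and 846.1 at 48 h, and 2173, 2048 and 5026 at 96 h. Its arrays were ordered by time without overlap, and it was at least 1.55-fold higher at 96 h than at 24 h (fitted difference 2.08, SE 0.35). Probe 601 read 1351, 3316 and 4608 at 24 h, all above background as means of both spots. Its spots differed, with 2199 and 502 on replicate 1, 2913 and 3719 on replicate 2, and 9397 and -181 on replicate 3. The 2 filled cells at 48 h were -67.4 and -498.9 and those at 96 h -408.9, 135 and -1154, none of them above background. It was at least 1.88-fold lower at 96 h (fitted difference -2.42, SE 0.37) and at least 2.17-fold lower at 48 h (adjusted p = 0.218).

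Each of the 5 calls rests on values near background, where values below 0 share 1 log2 value and p-values can be too small. The count of 5 fell to 0 without 24 h replicate 2 or 3 or without any 48 h array, to 1 without 96 h replicate 2 or 3, and was 4 without 96 h replicate 1 and 7 without 24 h replicate 1. It was also 0 with unscaled values, with quantile normalization or with a block on the replicate number. Map2k3 was called in 7 of 25 alternatives and dusp1.L in 5 of 23. The direction held in all of them, which is no separate support for probes taken as called on the same arrays.

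**Figure D3:**
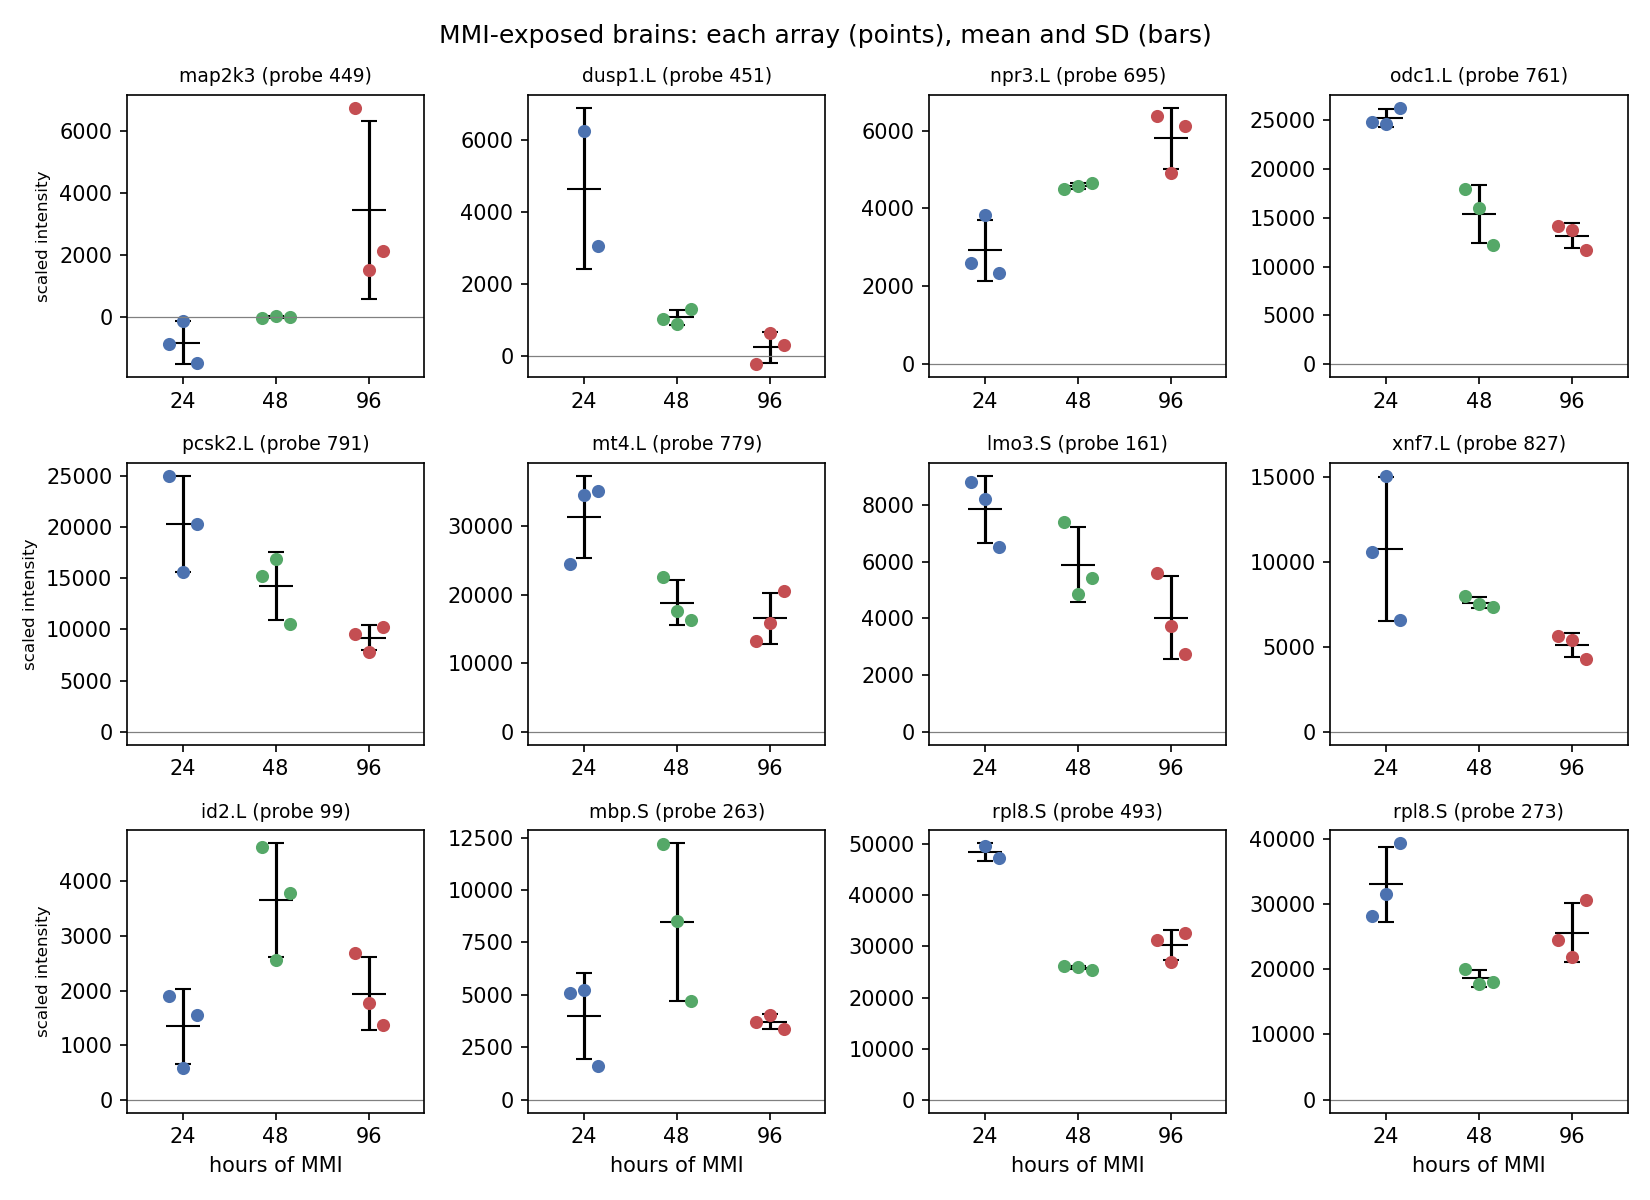
Scaled intensity (no unit, linear axis) of 12 probes in MMI-exposed brains at 24, 48 and 96 h, with each array as a point and the mean and SD as bars. Map2k3 is at or below 32.6 at 24 h and 48 h and dusp1.L goes the other way, while odc1.L and pcsk2.L lie lower and npr3.L higher at 96 h than at 24 h without overlap.

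Among the bright probes, which measure a difference on both sides, several stood lower at 96 h without passing the test. Odc1.L (probe 761), ornithine decarboxylase, the first enzyme of polyamine synthesis, read 24808, 24619 and 26246 at 24 h, 17979, 15987 and 12201 at 48 h, and 14159, 13701 and 11683 at 96 h. No later array reached the 24 h arrays, and the difference was -0.71 at 48 h (limma adjusted p = 0.459, but 0.28 with unscaled values) and -0.91 at 96 h (SE 0.21, adjusted p = 0.13). Pcsk2.L (probe 791), the prohormone convertase that cuts neuropeptide precursors, read 25002, 15604 and 20283, then 15257, 16864 and 10542, then 9525, 7820 and 10247. Its 96 h arrays lay below all 6 earlier ones, with a difference from 24 h of -1.08 (limma, SE 0.27, adjusted p = 0.172). Mt4.L (probe 779), a metallothionein, which binds zinc and copper, was at 31338 ± 5987 at 24 h, 18800 ± 3259 at 48 h and 16534 ± 3702 at 96 h (SD, n = 3 each), a difference of -0.90 at 96 h (limma adjusted p = 0.22). Xnf7.L (probe 827), a tripartite-motif protein that binds microtubules, read 10575, 15071 and 6603 at 24 h, 7975, 7522 and 7328 at 48 h, and 5620, 5388 and 4302 at 96 h. Lmo3.S (probe 161), a LIM-only cofactor of neuronal transcription factors, was at 7843 ± 1187, 5890 ± 1329 and 4031 ± 1458 at the 3 times. Each of these had all 96 h arrays below all 24 h arrays, with a difference of -0.93 for xnf7.L and -0.90 for lmo3.S (limma adjusted p = 0.24 for both). Among the 51 probes, under this scaling, 12 had every 96 h array below and 7 every 96 h array above the 24 h arrays. Over all 442 probes the counts were 33 below and 31 above. Under 5 scalings the differences at 96 h stayed below 0 for odc1.L (-0.92 to -0.25), pcsk2.L (-1.08 to -0.42), mt4.L (-0.92 to -0.24), xnf7.L (-0.93 to -0.30) and lmo3.S (-0.90 to -0.29). These genes are the lower end of the 51 probes on these same arrays, so the kept sign is no separate support. Of the 51 probes 21 were higher and 30 lower at 96 h, with a median of -0.22 against -0.01 over all 442, but 43 were higher when arrays were scaled on the probes above background on all 35 arrays. After the called probe 375, probes 465 and 1047 had the smallest p among the unnamed probes named on the higher side at 96 h, at 0.70 and 0.76 (adjusted p = 0.343 for both), and all their 96 h arrays lay above those at 24 h. Probe 809 was lower at both later times, with 2446 ± 279 at 24 h, 1131 ± 74.5 at 48 h and 1257 ± 352 at 96 h, and its difference was -0.81 at 48 h and -0.73 at 96 h (limma adjusted p = 0.402 and 0.22).

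From 48 h to 96 h limma called 0 of 442 probes (0% called), with 27 at an unadjusted p under 0.05, 21 higher and 6 lower, and 0.0531 as the smallest adjusted p, that of map2k3. A moderated F test for any difference among the 3 times also called 0 of 442 (39 at an unadjusted p under 0.05, smallest adjusted p = 0.077). Of the genes described at 48 h, mbp.S (-0.99) and id2.L (-0.75) stood lower again at 96 h, and pcsk2.L differed by -0.58 (limma adjusted p = 0.708 each). All 96 h arrays lay below all 48 h arrays for mbp.S and pcsk2.L, while those of id2.L overlapped. For id2.L and mbp.S the sign of both steps was the same under all 25 alternatives, but both were named for a small p on these same arrays. Among unnamed probes 541 (2.16), 375 (1.07), 1285 (0.93), 907 (0.70) and 579 (0.55) had the smallest p on the higher side after map2k3, and 261 (-1.20), 879 (-1.04) and 789 (-1.03) on the lower side, with adjusted p from 0.638 to 0.708.

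Genes were also read as 16 lists by function, with 104 genes, chosen with earlier results of these data known. Of their members 1 was called, map2k3 at 96 h against 24 h, in the list of growth factor and kinase signalling (1 of 14 higher, 0 lower), beside 1.13% of all probes. The list of the thyroid hormone pathway and response had 13 genes, of which 6 were above background on at least 1 array and 0 on all 9. Its receptor partners and coactivators were dim: rxrb.L, the partner of the thyroid hormone receptor, was above background on 2 of 9 arrays and ncoa2.S, a coactivator, on 1. Among direct response genes of the tadpole, klf9.L, a zinc-finger factor, and thibz.L, a leucine-zipper factor, were above background on no array, and neither were cebpa.L and the matrix metalloprotease mmp9.1.S. Fap.L, a serine protease of remodelling tissue, was above background on 3 arrays, with 3155, 2228 and 1156 as its highest values and none at 96 h. Of the hypothalamic and pituitary members, trh.S was above background on 2 arrays and prl.1.L, prlr.L and crhr1.2.S on 0. Crhbp.S (probe 345), the binding protein of corticotropin-releasing hormone, read -100.8, -1112 and -1296 at 24 h, -481.6, -259.9 and 32.4 at 48 h, and 158.5, 1247 and 1262 at 96 h. All its 96 h arrays lay above all earlier ones, 1 of them above background, and the fitted difference from 24 h was 1.20 (limma adjusted p = 0.22; no fold can be given). Mbp.S, described above, was above background on 8 arrays, more than any other member. The list's median was 0.03 at 48 h and 0.06 at 96 h, against -0.07 and -0.01 over all probes, and 0 members were called at either time. These medians are the values of crhbp.S at 48 h and of prlr.L at 96 h. Neither was above background at the times compared, so the medians give no measured change.

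In the list of neural progenitor and neurogenesis factors (13 genes, 10 above background on at least 1 array and 1 on all 9, 0 called) the median was 0.29 at 48 h and 0.33 at 96 h. The 96 h median is the value of dlx3.S, above background on 1 array, and the signs of dim members rest on values near background. At an unadjusted limma p under 0.05, 2 members were higher and 0 lower at 48 h, and 0 higher and 2 lower at 96 h. Over all probes these counts were 9 higher and 23 lower of 444 at 48 h, and 19 higher and 29 lower of 442 at 96 h. The members were id2.L and zic2.L at 48 h and lmo3.S and irx3.L at 96 h, of which zic2.L was above background on 0 arrays and irx3.L on 1. The list holds id2.L and lmo3.S, which went in opposite directions. Msi1.S, an RNA-binding protein of neural stem cells, was at 3098 ± 1226 at 24 h, 3837 ± 932 at 48 h and 2268 ± 1467 at 96 h (SD, n = 3 each). Btg1.S, an antiproliferative factor, was at 1934 ± 746, 2106 ± 978 and 1678 ± 472. The neuron, axon and synapse list (4 genes) had medians of -0.06 and -0.45, with gap43.S at 21962 ± 5816, 17654 ± 2453 and 15578 ± 1236, a difference of -0.45 at 96 h (limma adjusted p = 0.488) that was -0.02 after quantile normalization and 0.21 with the scaling probes of all 35 arrays, while dcc.L, a netrin receptor, was above background on 1 array only, 24 h replicate 3, and fmr1.L, an RNA-binding protein of dendrites, on 2. The glia and myelin list (3 genes) had medians of -0.30 and -0.52, and beside mbp.S it holds glul.L, the glutamine synthetase of astrocytes, above background on 1 array, and nkx2-2.S, a homeobox factor of oligodendrocyte precursors, on 2. Both medians are the values of the dim nkx2-2.S, while mbp.S was at 1.03 and 0.04. Npy.S stayed within 2291 to 3669 on all 9 arrays, and gh1.S, growth hormone of the pituitary, within 2530 to 8337, with 8337, 2530 and 7264 at 96 h. The lowest and the highest gh1.S value thus both came from 96 h, and the part of pituitary tissue in any difference was not tested.

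In glycolysis and energy metabolism (5 genes, 4 tested at 96 h, 0 called) the medians were -0.43 at both times, but 0.11 and 0.20 when arrays were scaled on the probes above background on all 35. Gapdh.S read 56527, 50865 and 53054 at 24 h and 38770, 36233 and 28046 at 48 h (difference -0.64, limma adjusted p = 0.59), and 2 of its 3 cells at 96 h are empty. Ldha.L, lactate dehydrogenase A, was at 3927 ± 844, 3058 ± 1191 and 2020 ± 385, a difference of -0.78 at 96 h (limma adjusted p = 0.343), and pkm.S, pyruvate kinase, was at 22331 ± 4800, 16482 ± 3417 and 15904 ± 3660, a difference of -0.48 at 96 h that turned to 0.18 under that scaling. Aldoc.L, the aldolase of brain, was at 8103 ± 803, 10746 ± 4216 and 9266 ± 1255, with overlapping arrays. In the cytoskeleton list (5 genes, medians -0.34 and -0.25, but 0.12 and 0.40 under that same scaling) coro1c.L, which binds actin, differed by -0.96 at 96 h (limma adjusted p = 0.367), and tubb4b.L, a tubulin, by -0.25, which turned to 0.40. In the list of cell cycle and DNA replication or repair 12 of 16 genes were above background on at least 1 array and 1 on all 9. By sign alone 13 of 16 were lower at 96 h, with a median of -0.30 against -0.01 over all probes. With arrays scaled on the probes above background on all 35 arrays, 8 of 16 were lower. The signs of dim members rest on values near background. The 1 member above background on all 9 arrays, pcna.S, the clamp of DNA polymerase, was at 4357 ± 1409, 4522 ± 999.8 and 4896 ± 880, and 0 of the 16 were called. Among growth factor and kinase genes ppp3ca.S, the calcineurin catalytic subunit, was at 7066 ± 205 at 24 h and 5661 ± 614 at 96 h, with no overlap and a difference of -0.30 (limma adjusted p = 0.52), but of 0.33 under that scaling. The lists of apoptosis, Wnt signalling, chromatin, immediate early factors, other nuclear receptors, ribosome and chaperones also had 0 called at any time. Their medians at 96 h ran from -0.62 (chaperones, cct3.S alone) to 0.41 (immediate early factors), and those of chaperones, ribosome and chromatin turned above 0 under that scaling. The 0.41 lies between the values of jun.L, above background on 0 arrays, and nr4a1.L, on 1, so it gives no measured change. Cct3.S, a subunit of the chaperonin that folds actin and tubulin, was at 10052 ± 1051 at 24 h and 6326 ± 538 at 96 h without overlap (-0.62, limma adjusted p = 0.473), a difference that was 0.02 under that scaling. Pabpc1.S, which binds the poly(A) tail of mRNA, was at 29239 ± 3172, 21431 ± 5183 and 19677 ± 3151 (n = 2 at 96 h, with an empty cell), a difference of -0.56 at 96 h (limma adjusted p = 0.488). Hmgn3.L, a nucleosome-binding protein, was at 32109 ± 8651, 25045 ± 4205 and 32476 ± 5521, and csnk1a1.L, a casein kinase of the Wnt pathway, was at 6813 ± 1699, 7717 ± 1299 and 7028 ± 1567, both with overlapping arrays. Ppara.S, a lipid-sensing nuclear receptor, was at 1699 ± 831 at 24 h and -75.8 ± 731 at 96 h without overlap, above background on 1 array at each time (fitted difference -1.54, limma adjusted p = 0.22).

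Markers of other tissues were few on this array, 8 genes in 6 lists, of which 0 were called. The red cell globin hbd.S read 506.9, 1326 and 1325 at 24 h, 763.3, 903.7 and 153.5 at 48 h, and 3294, 1441 and 1731 at 96 h. It was above background on 2 arrays, both at 96 h, and all 96 h arrays lay above all earlier ones (0.73 against 24 h, limma adjusted p = 0.488). The part of blood in the 96 h differences, map2k3 and dusp1.L among them, was not tested. The summed level of the immune markers il1b.S and casp1.L overlapped between the times, at 3718 to 6214, 3151 to 4329 and 3417 to 4999. Those of muscle (myf5.L), gut (fabp2.L), retina (crx.L) and epidermis or cartilage (col2a1.L and scnn1a.L) did as well, with fabp2.L and crx.L above background on no array. Il1b.S was above background on 1 array and casp1.L on all 9. Casp1.L alone read 2696, 2895 and 4192 at 48 h and 5217, 4830 and 4344.5 at 96 h, without overlap (0.50, limma adjusted p = 0.711). Its 24 h arrays overlapped with both later times. The part of immune cells in the 96 h differences was not tested. Col2a1.L, a collagen of cartilage, read 973.2, 3290 and 1704 at 24 h and 578.7, 786.9 and 46.9 at 96 h without overlap, a difference of -1.25 (limma adjusted p = 0.424), and was above background on 3 of 9 arrays. Its part in the 96 h differences was not tested. In pooled tissue fewer cells of a type and less RNA per cell cannot be told apart.

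The change over time with MMI was then set against the change over the same hours in control and PTU brains, in 1 limma fit over 27 arrays scaled on the 18 probes above background on all of them. From 24 h to 48 h the change with MMI differed from that in controls at 0 of 444 probes (33 at an unadjusted p under 0.05) and from that with PTU at 0 of 441 (24). From 24 h to 96 h it differed from controls at 12 of 442 (2.71%) and from PTU at 10 of 436 (2.29%), all in the same direction, with MMI changing more upward. These tests share the MMI arrays. The same 6 unnamed probes were called in both, 465, 467, 579, 581, 909 and 1173. On probe 1173 the scaled intensity with MMI was 8069 ± 1785 at 24 h (n = 2), 13613 ± 2845 at 48 h and 18271 ± 1188 at 96 h. In controls it was 20576 ± 2679 at 24 h, 14625 ± 3473 at 48 h and 3872 ± 2447 (n = 2) at 96 h, and with PTU 17004 ± 365, 11033 ± 4290 and 4492 ± 700 (SD, n = 3 where not given). The MMI time course thus ran from the lowest to the highest of the 3 treatments. The change of probe 1173 from 24 h to 96 h was 1.13 with MMI, -2.32 in controls and -1.78 with PTU, a difference of 3.44 from controls (SE 0.56, limma adjusted p = 0.00134) and of 2.90 from PTU (SE 0.53, adjusted p = 0.00171). Probe 909 went from 8740 ± 2084 to 18252 ± 4684 with MMI and from 16502 ± 3504 to 2708 ± 1216 in controls, a difference of 3.36 (limma adjusted p = 0.00187). Probe 581 went from 6216 ± 624 to 15725 ± 4158 with MMI, from 14039 ± 2388 to 2102 ± 3163 in controls, and from 18242 ± 8673 to 1370 ± 72.9 with PTU. Inside the MMI arrays alone, in the 9-array fit, the 96 h minus 24 h differences of the 6 probes were 0.35 to 0.70 and none was called (limma adjusted p from 0.343 to 0.631). Part of the rise with MMI thus came with the 27-array scaling. On probe 465 the MMI means at 24 h and 96 h were 3899 and 10376 in the 27-array scaling, but 4825 and 8094 in the 9-array scaling. Over all probes the median change with MMI from 24 h to 96 h was 0.21 in the 27-array fit and -0.01 in the 9-array fit. Map2k3 was called against controls (fitted difference 3.58, limma adjusted p = 0.0097), but of the 4 groups in that contrast only MMI at 96 h was above background on any array, so the fitted value is no measured size. Outside that contrast, map2k3 was above background on 1 control array at 48 h, replicate 3, at 4001. Against PTU, casp1.L, the caspase that processes interleukin 1, was called with a fitted difference of 3.04 (adjusted p = 0.0237), at 3673 ± 1582 to 6161 ± 371 with MMI and 6031 ± 2574 to 603 ± 387 with PTU. No PTU array at 96 h was above background for casp1.L, so this fitted value is no measured size either. With unscaled values limma called 0 probes against controls and 0 against PTU, with 47 and 32 at an unadjusted p under 0.05. Quantile normalization also left fewer calls in both tests. The direction of all 22 results held in every alternative run. They were taken because they were called on these arrays, and most alternatives left out 1 array, so this is no separate support. Over all probes the median difference in change was 0.34 against controls and 0.13 against PTU.

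**Figure D4:**
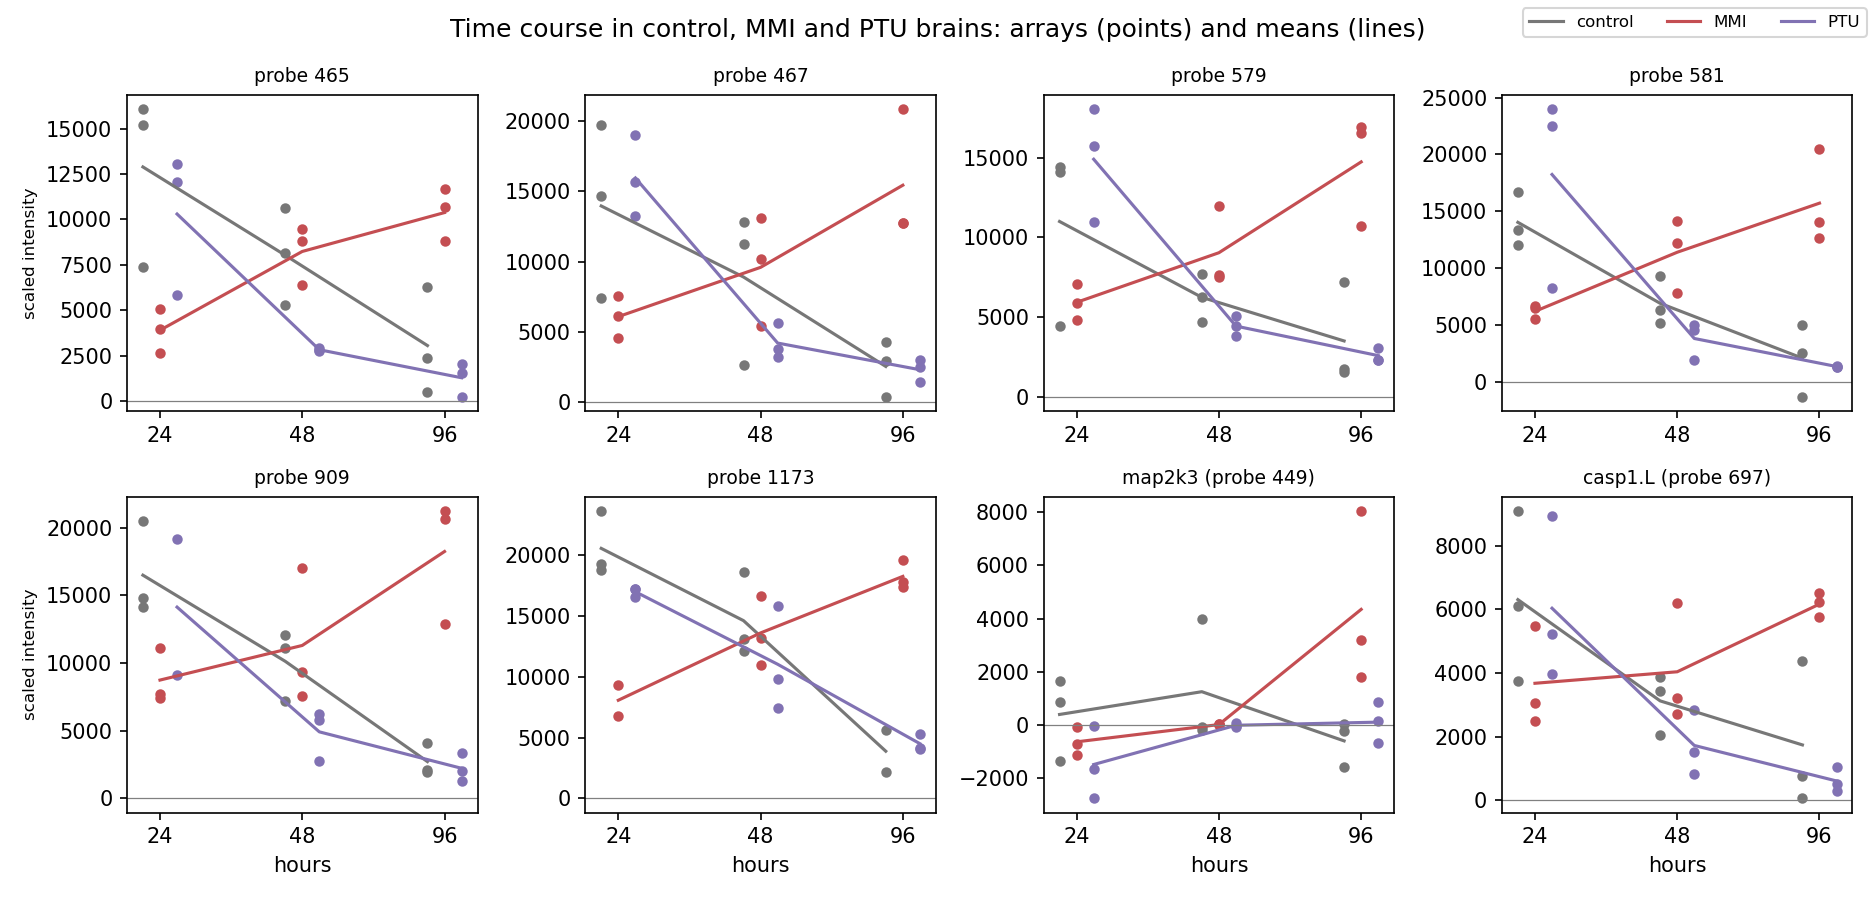
Scaled intensity (no unit, linear axis, 27-array scaling) at 24, 48 and 96 h in control, MMI and PTU brains, with each array as a point and group means joined by lines, for the 6 unnamed probes called against both treatments and for map2k3 and casp1.L. On the unnamed probes the MMI line goes up from the lowest level at 24 h while the control and PTU lines go down, to 3872 and 4492 on probe 1173 at 96 h.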

How the data were processed

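The authors deposited 1 table of intensity values for the series, whole numbers on a linear scale with values below 0. Per the labels' protocols, amplified brain RNA was reverse-transcribed with radioactive dATP for a 1-channel array. How background was removed, whether arrays were scaled and why cells are empty: not given in the sources used here. Probe names come from the platform annotation, updated through gene IDs, with 3 kept under the array symbol.

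Both spots of a probe were averaged. Each array was scaled to the median of the 51 probes above background on all 9 MMI arrays (factors 0.366 to 1.77), values below 0 were set to 0, an offset of 595 (the median background SD) was added and log2 taken. Limma 3.58.1 in R 4.3.3 (lmFit, eBayes) was fitted over the 9 arrays, with Benjamini-Hochberg adjustment over all probes tested, calls at an adjusted p under 0.05, and at least 2 values per group. The fit over 27 arrays used 18 scaling probes and an offset of 712. PER arrays entered only 1 alternative. The number of arrays limits the precision. The limma steps were tested on simulated data with changes only on probes well above background, so that test does not cover calls near background. Plots used Python 3.11.15 with matplotlib 3.10.9.

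The genes named per comparison are the called probes, filled to 6 each way by the smallest unadjusted p among probes above background on all arrays of 1 group. All thyroid hormone members, the 4 brightest members of each other list and up to 4 probes per test of a difference in time course were added. The members and lists were chosen with earlier results of these data known.

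Replicate numbers are shared between times. Deviations from the group means correlated at 0.197 to 0.266 in all 3 same-numbered pairs of 24 h and 48 h. The labels do not say that these are pairs, and all p-values given in the Results come from fits without a block. Blocking on the number also gave 0 calls there. Over all 9 same-numbered pairs the range was -0.175 to 0.451, with 5 over 0.1. Over the 18 pairs with different numbers it was -0.347 to 0.383, with 3 over 0.1. Among the 9 MMI arrays, no 2 shared more than 0.120% of their spot values. Alternatives covered the scaling, the offset, a filter on dim probes, the spots, the variance model, the arrays in the fit and leaving out each array. Aligning the zero level and leaving out the arrays of 48 h replicate 3 and 96 h replicate 2 together were chosen after seeing the data.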

Additional observations from a re-analysis of the deposited data

Results flagged for a closer look

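The change from 24 h to 96 h with MMI differed from that in another treatment, by limma's test of the difference itself over 27 arrays, at 22 results on 16 probes, of which 11 have no gene name. Against controls the differences (log2) were 1.91 for pparg.L, 3.58 for map2k3, 3.41 for probe 465, 3.57 for probe 467, 2.78 for probe 579, 3.84 for probe 581, 2.84 for probe 633, 2.69 for probe 699, 2.90 for probe 907, 3.36 for probe 909, 3.03 for probe 1165 and 3.44 for probe 1173. Against PTU they were 1.85 for rpl8.S (probe 39), 3.18 for rpl35a.S, 3.82 for probe 465, 3.73 for probe 467, 3.44 for probe 579, 4.27 for probe 581, 3.04 for casp1.L, 3.31 for probe 909, 2.47 for probe 1047 and 2.90 for probe 1173. Pparg.L was above background on none of the 27 arrays, so its difference has no measured level on either side. Map2k3 was above background in 1 of the 4 groups of its contrast, MMI at 96 h, and probes 633 and 699 on 0 of 3 control arrays at 96 h. Casp1.L was above background on 0 of 3 PTU arrays at 96 h. The fitted differences of these are not measured sizes. Rpl35a.S read -36.8, 1843 and -753.4 with MMI at 24 h, 1 of them above background. Its fitted difference thus rests in part on values set to 0, and it was called in 4 of 16 alternatives. For rpl8.S the other 4 probes of the gene were not called. On probe 39 the PTU mean at 24 h was 91740 ± 26141 against 32948 ± 2482 with MMI (SD, n = 3 each). Map2k3 against controls was called in 15 of 16 and probe 909 in 15 of 16, of the alternatives run, and probe 1047 against PTU in 1 of 16.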

How the results depend on the processing

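The count of 0 called probes at 48 h against 24 h became 2 with an offset at the 5th percentile of the positive values, 1 with probes above background on at least 3 arrays and 4 by the labels' rule of a 2-fold change with no test, and was 0 to 6 without 1 array, the 6 without 24 h replicate 1. The 5 called at 96 h against 24 h became 0 with unscaled values, quantile normalization, the median over all probes, a doubled offset, the second spot only, an intensity trend in eBayes, or without 48 h replicate 3 and 96 h replicate 2 together. They became 3 (3 higher, 0 lower) with the scaling probes of all 35 arrays, 2 with the first spot only and 1 with 27 or 35 arrays in 1 fit, and 0 to 7 without 1 array. With the replicate block the count was 0 here, and the block moved no other count by over 1.5 times. At 96 h against 48 h the 0 became 3 with the 35-array scaling probes or array weights, 2 with the lower offset, 1 with the filter, the 27-array or 35-array fit or an aligned zero level, and 8 by the labels' rule, and was 0 to 6 without 1 array (6 without 96 h replicate 1). The F test's 0 became 4 with the lower offset or the filter, 2 with the 35-array scaling probes, 1 with either larger fit, the first spot or the aligned zero level, and was 0 to 6 without 1 array (6 without 24 h replicate 1, 3 without 96 h replicate 1). Against controls the 12 probes became 0 unscaled, 3 with quantile normalization, 4 with the lower offset and 8 to 20 without 1 array (20 without control 96 h replicate 3). Against PTU the 10 became 0 unscaled, 0 with quantile normalization, 4 with the lower offset and 5 to 12 without 1 array (5 without MMI 24 h replicate 1 or PTU 24 h replicate 2, and 6 without MMI 24 h replicate 3, MMI 96 h replicate 3 or PTU 96 h replicate 2). At 48 h the counts were 0 to 1 against controls and 0 to 0 against PTU. Unscaled values turned the sign at 48 h for rpl8.S (0.22 on probe 493, 0.20 on probe 273), nme2.L (0.18) and odc1.L (0.28), and from 48 h to 96 h for probe 907 (-0.071) and probe 579 (-0.22). The difference in probes above background was -9.67 to 67.8 without 1 array, 5.00 with an aligned zero level. Without scaling the median of all probes moved by 0.34 at 48 h against 24 h and by -0.24 at 96 h against 48 h, and the 35-array scaling probes moved it by 0.17 and 0.23 at 48 h and 96 h against 24 h. The causes of these changes were not tested. Signal over background limits the dim probes, whose values at or below 0 have no order.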
